A study of Mus musculus with 20 samples.

Results

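The Wnt negative-feedback targets examined here are 10 genes, Axin2, Nkd1, Notum, Wif1, Dkk2, Rnf43, Znrf3, Apcdd1, Sp5 and Tnfrsf19, out of 32991 genes with values in colon tissue. They were chosen by name, as known Wnt targets and Wnt inhibitors, with knowledge of their FPKM levels in both AOM/DSS groups against Control and against each other, and 5 of them (Axin2, Nkd1, Notum, Wif1 and Dkk2) are Wnt genes that the study itself followed. All 10 were found in the data by gene symbol.

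Wnt ligands bind Frizzled and LRP receptors at the cell surface, which spares β-catenin from a destruction complex and lets it act with TCF/LEF factors on target genes. Several of these targets encode proteins that damp the pathway at a level above β-catenin, so that the pathway limits itself. In the intestine this signalling is strongest at the crypt base, and its feedback genes are widely used as a readout of pathway activity.

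Colon RNA was sequenced from 20 male C57BL/6 mice, 1 library per mouse, in 4 groups of 5. The Control group was given double distilled water by gavage and the PZH group 250 mg/kg/d of PZH (Pien Tze Huang, a traditional Chinese medicine) for 91 days. The AOM/DSS group was gavaged with water as the Control group was, and received 12.5 mg/kg of the colon carcinogen azoxymethane (AOM) in the peritoneum on day 1. From 7 days later it drank 2% dextran sulfate sodium (DSS), which injures the colonic epithelium, for 5 days, followed by 2 weeks of plain water, over 4 cycles. The PZH + AOM/DSS group received AOM, DSS and PZH together. The age of the mice is not given in the sources used here, nor is whether a sampled piece of colon held a tumor.

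Libraries were 15.3 to 19.4 M fragments deep as read from the steps of the values. Although the label on RNA extraction speaks of the abdominal aorta, the 8 colonocyte markers summed to between 1140 and 3700 FPKM (fragments per kilobase of transcript, scaled to the mapped fragments of the library) in the 20 mice. This list includes Muc2, a mucin gene of goblet cells, at 234 to 2030 FPKM. Control mice 17 and 50 stood apart, with 8 squamous epithelium markers at 362 and 300 FPKM in sum against 1.19 to 1.84 in the other Control mice. A listed 0 is not proof of absence in these data, since Epcam, a gene of every colonic epithelial cell, was listed at 0 in 13 of 20 mice, including all 5 Control mice, and at up to 865 FPKM in others. Where a group holds a listed 0, the value of each mouse is therefore given instead of a mean.

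The regions just upstream of the start sites of Sp5, Axin2 and Tnfrsf19 are shown because these genes span the range seen here, from almost no signal to a constant presence in untreated colon, and because Tnfrsf19 starts at more than one place. Each run holds the 250 bases before the start, 5′ to 3′ on the strand of the gene (RefSeq, build GRCm38.p6), and capitals mark 4 TCF/LEF words on either strand. The words are ATCAAAG (held by 3.73% of all promoters of the reference), TTCAAAG (held by 5.14%), AACAAAG (held by 5.85%) and TACAAAG (held by 3.63%). They share their last 5 letters, so no 2 of them can sit at the same place on one strand.
Sp5, chr2:70474673-70474922, plus strand: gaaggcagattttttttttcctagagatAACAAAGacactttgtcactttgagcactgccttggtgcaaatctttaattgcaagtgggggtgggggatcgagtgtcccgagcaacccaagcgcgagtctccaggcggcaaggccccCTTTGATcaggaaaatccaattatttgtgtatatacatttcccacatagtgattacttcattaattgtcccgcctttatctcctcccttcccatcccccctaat
Axin2, chr11:108920099-108920348, plus strand: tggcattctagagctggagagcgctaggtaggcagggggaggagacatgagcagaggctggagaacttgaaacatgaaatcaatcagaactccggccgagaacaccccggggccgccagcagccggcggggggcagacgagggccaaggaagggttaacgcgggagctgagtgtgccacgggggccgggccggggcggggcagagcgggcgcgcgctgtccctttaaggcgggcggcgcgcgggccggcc
Tnfrsf19, downstream start, chr14:61037988-61038237, minus strand: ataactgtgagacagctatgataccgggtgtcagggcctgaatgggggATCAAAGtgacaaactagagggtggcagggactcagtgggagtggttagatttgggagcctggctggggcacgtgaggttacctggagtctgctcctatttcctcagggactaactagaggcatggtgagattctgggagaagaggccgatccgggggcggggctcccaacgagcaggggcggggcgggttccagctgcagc
Tnfrsf19, upstream start, chr14:61046856-61047105, minus strand: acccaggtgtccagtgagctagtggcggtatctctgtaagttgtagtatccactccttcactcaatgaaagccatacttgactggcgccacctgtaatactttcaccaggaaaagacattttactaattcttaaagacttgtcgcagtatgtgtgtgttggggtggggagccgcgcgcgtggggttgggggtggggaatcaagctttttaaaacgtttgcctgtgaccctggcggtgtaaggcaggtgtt

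Promoter entries were used for 7 of the 10 genes (9 start sites, since Rnf43 and Tnfrsf19 have 2 each). Notum and Znrf3 had no entry, and Apcdd1, on chr18, was left out. The words were searched in 300 bases, from 250 before to 50 after each start. Sp5 held 2 words, AACAAAG beginning 222 bases and CTTTGAT, the reverse complement of ATCAAAG, beginning 104 bases before the start. Tnfrsf19 held 1, ATCAAAG at 202 bases before its downstream start, and no word lay in the window of its upstream start or in those of Axin2, Dkk2, Nkd1, Rnf43 and Wif1. Among all 32851 promoters of this length, 16.9% held at least 1 of the words and 1.94% at least 2. The share of 2 of 9 windows is thus near that of promoters in general, and no binding was measured.

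Differences below are on the log2(FPKM + 1) scale, which understates changes of genes with low values. The contrasts AOM/DSS against Control and PZH + AOM/DSS against AOM/DSS were known when the genes were listed, so for the 10 genes they are described without a test. As bulk tissue was sequenced, fewer cells of a type and less RNA per cell cannot be told apart.

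In Control mice the 10 genes lay at very different levels. Rnf43 (8.47 ± 1.61 FPKM, SD, n = 5), Axin2 (8.08 ± 2.77) and Nkd1 (4.24 ± 1.40) were the highest. Tnfrsf19 (2.54 ± 1.40), Znrf3 (0.770 ± 0.168), Wif1 (0.673 ± 0.177), Dkk2 (0.454 ± 0.251) and Sp5 (0.107 ± 0.0676) followed. Notum was listed at 0 in 4 Control mice, and at 0.0364 FPKM, worth about 1 fragment, in the other, and Apcdd1 was listed at 0 in 1. Neighbours in this order overlapped, except Tnfrsf19 with Znrf3 and Dkk2 with Sp5.

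In AOM/DSS mice the order was another one. Wif1 was the highest at 104 ± 35.3 FPKM (SD, n = 5), followed by Nkd1 at 84.2 ± 27.3 and Apcdd1 at 53.3 ± 22.8, with overlapping ranges between neighbours. For 9 of 10 genes the AOM/DSS mice did not overlap with the Control mice, all being higher, where 18.4% of all 15812 genes tested did not overlap and 13% did so upwards. The exception was Znrf3, through AOM/DSS mouse 33. Since the list was made with this contrast known, nothing is read from the count.

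**Figure D1:**
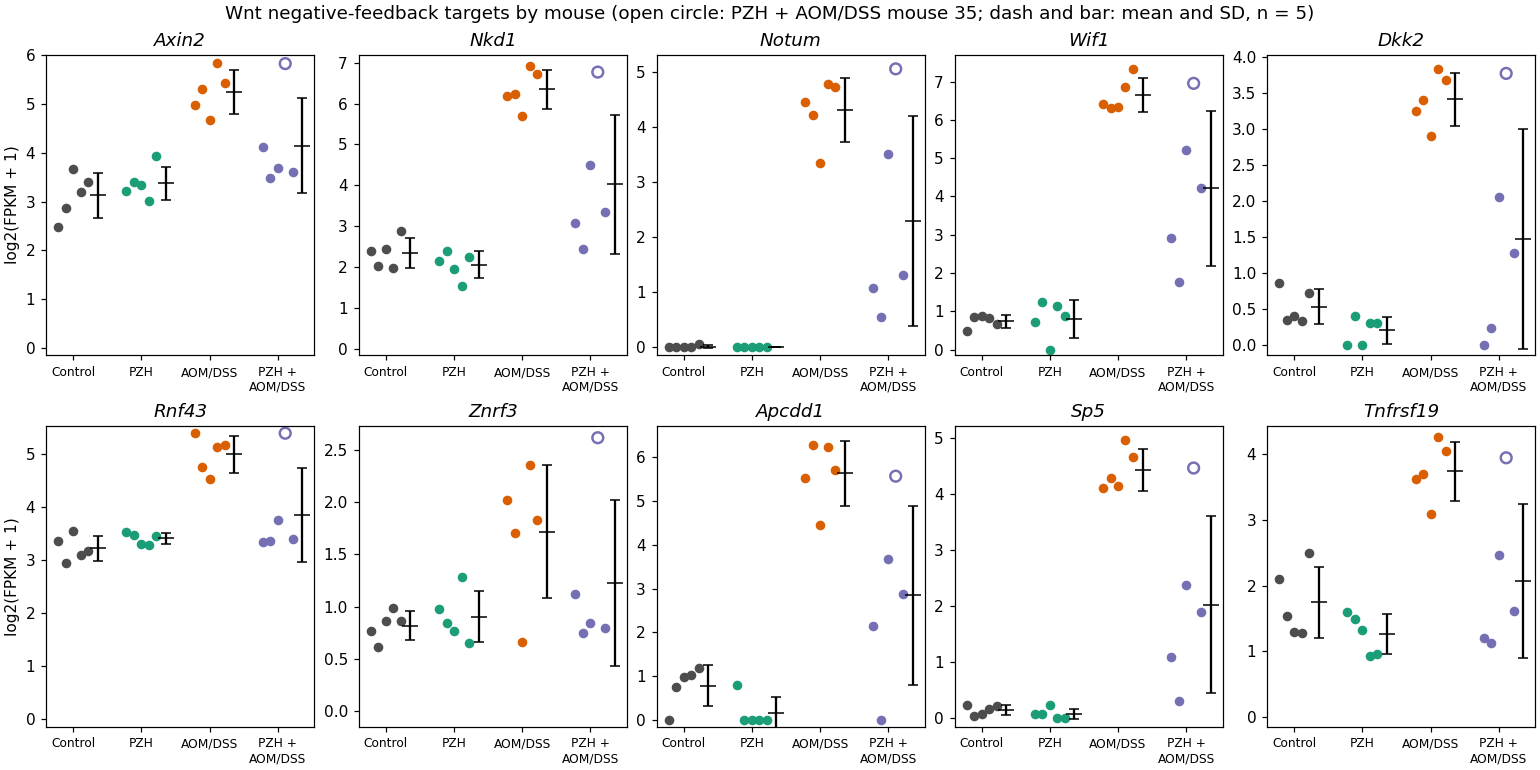
Level of each of the 10 genes in each mouse, as log2(FPKM + 1) on the vertical axis with its own scale per panel, in the 4 groups of 5. Dashes and bars are the mean and SD of each group, and the open circle is PZH + AOM/DSS mouse 35, which lies at or near AOM/DSS levels in every panel.

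The first set of genes encodes inhibitors that act inside the cell. Axin2, a scaffold of the β-catenin destruction complex (ENSMUSG00000000142.15, chr11:108920349-108950783 of GRCm38, plus strand), had 4.57, 6.32, 11.7, 8.22 and 9.56 FPKM in the 5 Control mice. PZH mice had 8.30, 9.5, 9.05, 7.08 and 14.2 FPKM, and AOM/DSS mice 30.7, 38.4, 24.3, 56.1 and 41.8 FPKM. In PZH + AOM/DSS mice 2, 13, 15, 35 and 36 it was 16.3, 10.1, 11.9, 55.7 and 11.1 FPKM. Every AOM/DSS mouse thus exceeded every Control and PZH mouse, and of the PZH + AOM/DSS mice only mouse 35 reached the AOM/DSS range. The AOM/DSS minus Control difference was 2.12 (SE 0.26).

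Nkd1, which binds Dishevelled and antagonises the pathway (ENSMUSG00000031661.12, chr8:88521354-88594884, plus strand), lay at 2.95 to 6.43 FPKM in Control and 1.91 to 4.30 FPKM in PZH mice. It reached 71.9, 74.7, 51.0, 120 and 104 FPKM in AOM/DSS mice, a difference of 4.00 (SE 0.24) from Control. PZH + AOM/DSS mice had 7.42, 4.46, 21.5, 108 and 9.28 FPKM, so that 4 of them were below every AOM/DSS mouse and all 5 above every PZH mouse. Its relative Nkd2 did not share this course: it was lower in AOM/DSS mice than in Control mice (1.25 ± 0.475 against 3.01 ± 0.964 FPKM, SD, n = 5, difference −0.83, SE 0.19, limma adjusted p = 0.0107). Axin1, the constitutive counterpart of Axin2, had a difference of 0.22 (SE 0.09, limma adjusted p = 0.119). Its AOM/DSS mice were all above its Control mice, by a small margin (18.6 ± 1.67 against 15.8 ± 1.08 FPKM, SD, n = 5).

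The secreted antagonists had the widest range. Notum, a lipase that removes the palmitoleate group from Wnt ligands (ENSMUSG00000042988.10, chr11:120653788-120661175, minus strand), was listed at 0 in all 5 PZH mice. It had 21.1, 17.7, 9.16, 26.5 and 25.6 FPKM in AOM/DSS mice and 1.10, 0.459, 10.4, 32.5 and 1.47 FPKM in PZH + AOM/DSS mice 2, 13, 15, 35 and 36. Every mouse given AOM/DSS, with or without PZH, was therefore above every mouse that was not. Mouse 35 exceeded all AOM/DSS mice and mouse 15 overlapped with them. Notum shares its locus with genes on the opposite strand, of which Notumos had a mean of 0.0405 FPKM in Control mice, 0.0212 in PZH mice, 12.0 in AOM/DSS mice and 4.23 FPKM with both treatments, and without strand in the counting the reads of both cannot be told apart.

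Wif1, which binds Wnt proteins outside the cell (ENSMUSG00000020218.11, chr10:121033960-121100650, plus strand), had 0.394 to 0.820 FPKM in Control mice. The PZH mice had 0.654, 1.37, 0, 1.19 and 0.839 FPKM. AOM/DSS mice had 84.5, 78, 79.5, 116 and 160 FPKM, a mean 154 times that of Control and a difference of 5.92 (SE 0.20). Values of 6.48, 2.37, 36.3, 123 and 17.8 FPKM in PZH + AOM/DSS mice placed all 5 above every Control and PZH mouse, and 4 below every AOM/DSS mouse.

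Dkk2, a ligand of LRP receptors from the Dickkopf family (ENSMUSG00000028031.6, chr3:132085292-132180304, plus strand), had 0.252 to 0.804 FPKM in Control mice, highest in mice 17 and 50. PZH mice had 0, 0.316, 0, 0.229 and 0.229 FPKM. It reached 8.50, 9.57, 6.41, 13.2 and 11.8 FPKM in AOM/DSS mice, against 0, 0.170, 3.15, 12.6 and 1.42 FPKM in PZH + AOM/DSS mice. Mice 2 and 13 were thus below every Control mouse, and mouse 35 was within the AOM/DSS range.

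Rnf43 and Znrf3 are paired membrane ubiquitin ligases that clear Frizzled receptors from the surface and are themselves held back by R-spondins. Rnf43 (ENSMUSG00000034177.15, chr11:87662722-87735539, plus strand) lay at 6.68 to 10.8 FPKM in Control and 8.80 to 10.6 FPKM in PZH mice. AOM/DSS mice had 41.5, 26, 22.2, 34.4 and 35.2 FPKM, and PZH + AOM/DSS mice 9.13, 9.30, 12.5, 41.3 and 9.56 FPKM. Apart from mouse 35, only mouse 15 of the latter group was above the Control range.

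Znrf3 (ENSMUSG00000041961.14, chr11:5276324-5444847, minus strand) was the member with the smallest difference between AOM/DSS and Control, 0.90 (SE 0.27). Its values were 3.05, 2.27, 0.586, 4.13 and 2.56 FPKM in AOM/DSS mice, against 0.526 to 0.978 FPKM in Control mice. In PZH + AOM/DSS mice they were 1.18, 0.683, 0.792, 5.14 and 0.734 FPKM. Mouse 35 had the highest value of all 20 mice, and the other 4 lay within the AOM/DSS range.

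Apcdd1, a membrane protein that binds Wnt and LRP (ENSMUSG00000071847.13, chr18:62922231-62961179, plus strand), is represented by 1 of its 5 annotated transcripts. Control mice had 0, 0.679, 0.978, 1.04 and 1.27 FPKM, and PZH mice 0.744 once and a listed 0 in the other 4. Values in AOM/DSS mice were 44.8, 76.1, 20.8, 74.1 and 50.9 FPKM and in PZH + AOM/DSS mice 3.44, 0, 11.8, 46.3 and 6.30 FPKM. The AOM/DSS mice all exceeded the untreated ones, and mouse 13 was listed at 0 although it had received AOM/DSS.

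Sp5, a zinc finger factor that lowers transcription of other Wnt targets (ENSMUSG00000075304.2, chr2:70474923-70477729, plus strand), is the gene whose upstream run holds 2 TCF/LEF words. It lay at 0.0261 to 0.175 FPKM in Control mice, which is 1 to 6 fragments per mouse. PZH mice had 0.0579, 0.0587, 0.176, 0 and 0 FPKM, AOM/DSS mice 16.3, 18.5, 16.8, 30.3 and 24.6 FPKM, and PZH + AOM/DSS mice 1.13, 0.246, 4.22, 21.2 and 2.71 FPKM. As with Wif1, the groups with and without AOM/DSS did not overlap. Its mean in AOM/DSS mice was 21.3 ± 6.03 FPKM (SD, n = 5).

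Tnfrsf19 (also called Troy), a TNF receptor family member of crypt base cells (ENSMUSG00000060548.13, chr14:60963875-61046490, minus strand), had 3.30, 1.90, 1.45, 1.43 and 4.64 FPKM in Control mice 17, 37, 41, 48 and 50. The highest Control values were those of mice 17 and 50, the mice with squamous markers, and whether this tissue contributed was not tested. PZH mice had 0.910 to 2.02 FPKM and AOM/DSS mice 11.3, 12.0, 7.48, 18.1 and 15.6 FPKM. PZH + AOM/DSS mice had 1.29, 1.18, 4.52, 14.4 and 2.05 FPKM, and mice 2 and 13 were below every Control mouse.

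**Figure D2:**
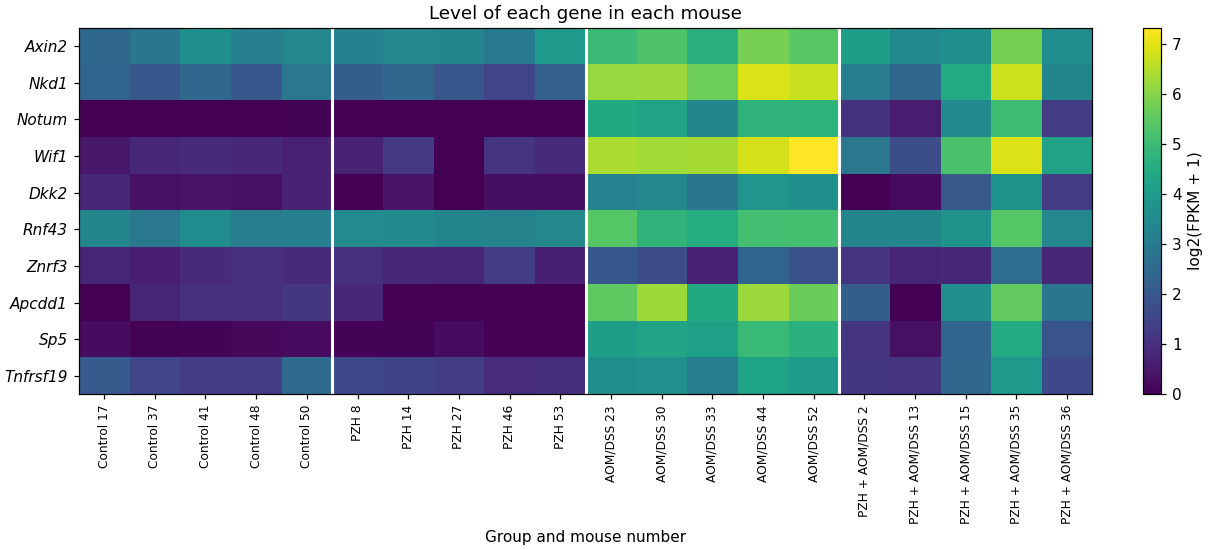
Level of the 10 genes (rows) in each of the 20 mice (columns, by group and mouse number), with the color giving log2(FPKM + 1). The AOM/DSS block is bright across its 5 columns, and in the PZH + AOM/DSS block the column of mouse 35 is bright while that of mouse 13 resembles untreated mice for most genes.

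PZH given alone was the contrast not used to list these genes. The study had, however, named 5 of them for being higher in AOM/DSS mice than in both Control and PZH mice. Of the 10 genes, 7 reached 0.5 FPKM in 5 or more of the 10 mice and were tested (Notum, Dkk2 and Sp5 did not pass), and 0 of 7 had an adjusted p under 0.05 by limma, as did 0.00645% of the 15506 genes tested. At an unadjusted p under 0.05 there was 1, Apcdd1, beside 8.84% of all genes. Its difference of −0.63 (SE 0.24, limma unadjusted p = 0.0231, adjusted p = 0.536) rests on the 4 PZH mice listed at 0. It was −2.12 (SE 0.83, adjusted p = 0.549) with a pseudocount of 0.1, and the gene fell out of the test without Control mouse 37, 41, 48 or 50 or PZH mouse 8. Tnfrsf19 had −0.48 (SE 0.25, limma adjusted p = 0.608), and −0.11 (SE 0.19) when Control mice 17 and 50 were left out, a setting added after seeing the data. Differences of the other 5 lay between −0.29 (Nkd1) and 0.25 (Axin2), with SEs of 0.13 to 0.24. No member separated the groups, whereas 1.81% of all genes did.

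AOM/DSS in mice that also received PZH was compared with PZH alone, a contrast that shares no mouse with AOM/DSS against Control, although its PZH + AOM/DSS mice were known when the genes were listed. The differences of the 7 genes tested were above 0, as were those of 56.2% of all genes tested, from which nothing is read for the same reason. The spread within PZH + AOM/DSS was wide, and 0 of the 7 had an adjusted p under 0.05 by limma, where 2.42% of 15636 genes had. At an unadjusted p under 0.05 there were 3, beside 20.9% of all genes. Wif1 came closest at 3.42 (SE 0.81, limma adjusted p = 0.0545), followed by Apcdd1 at 2.69 (SE 0.80, adjusted p = 0.1) and Nkd1 at 1.97 (SE 0.68, adjusted p = 0.135). Axin2 (0.77, SE 0.40), Tnfrsf19 (0.81, SE 0.48), Rnf43 (0.44, SE 0.35) and Znrf3 (0.32, SE 0.33) had smaller differences, with adjusted p from 0.311 to 0.617.

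Nkd1 and Wif1, 2 of the 7 genes tested, were higher in all 5 PZH + AOM/DSS mice than in any PZH mouse, where 5% of all genes tested did so upwards and 7.37% in either direction. Without mouse 35 the same 2 of 6 did so, beside 5.8% of genes upwards. Notum and Sp5, which did not pass the filter, were also higher in all 5. Nothing is read from these counts, since the PZH + AOM/DSS levels were known when the genes were listed. The call for Wif1 depended on the setting: its adjusted p was 0.0478 with a pseudocount of 0.1, 0.00492 with all 20 mice in one limma model, and 0.0266 without mouse 13, while the other alternatives gave 0.0551 to 0.130. Without mouse 13, Apcdd1 was also called (3.40, SE 0.58, limma adjusted p = 0.0268), and it dropped below the filter when PZH mouse 8 or PZH + AOM/DSS mouse 2, 15, 35 or 36 was left out. Mouse 13 was the only PZH + AOM/DSS mouse listed at 0 for Apcdd1. The other mice of that group and PZH mouse 8 alone carried Apcdd1 past the filter. A difference upwards was thus largely set by the filter, and nothing is read from this call.

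**Figure D3:**
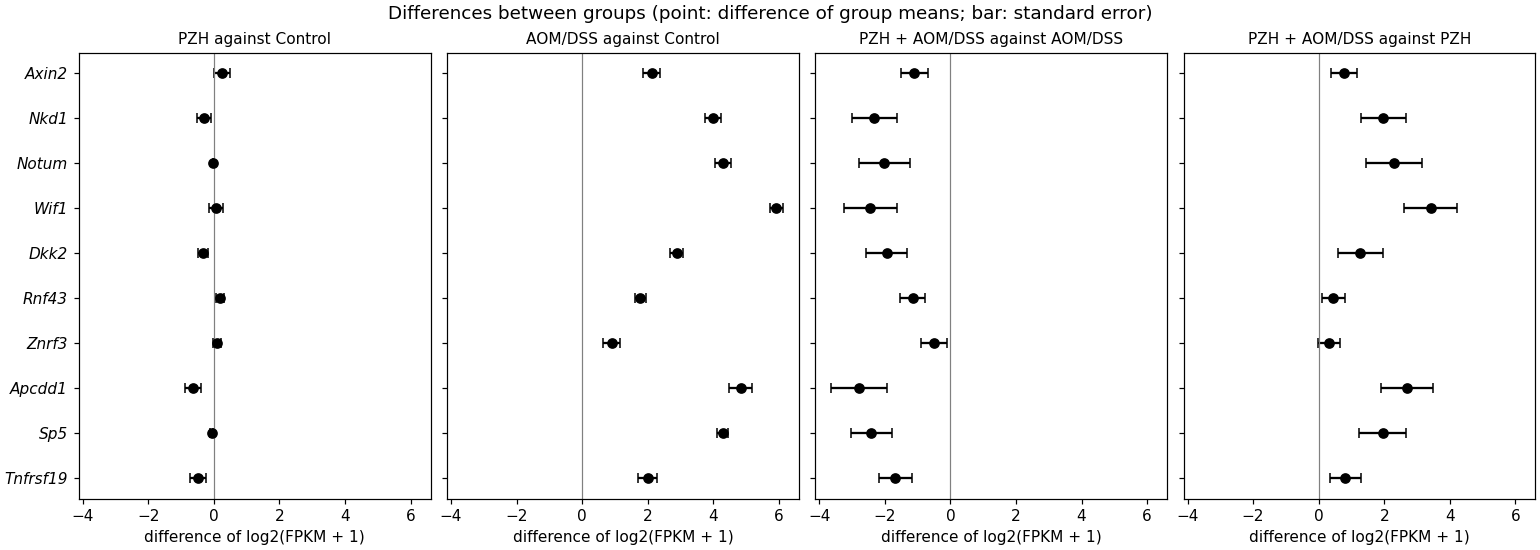
Difference of mean log2(FPKM + 1) for each of the 10 genes in 4 comparisons, with bars for the standard error (n = 5 mice per group). Differences lie between −0.63 and 0.25 for PZH against Control, between 0.90 and 5.92 for AOM/DSS against Control, and have wide errors in both comparisons that include the PZH + AOM/DSS mice.

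Set against AOM/DSS mice, the PZH + AOM/DSS mice had lower means for all 10 genes, where 56.6% of genes tested had a difference below 0, and overlapped for all 10, because of mouse 35 alone in 8 of them. The differences ran from −2.78 (SE 0.85) for Apcdd1, −2.44 (SE 0.81) for Wif1 and −2.41 (SE 0.63) for Sp5 to −1.10 (SE 0.42) for Axin2 and −0.49 (SE 0.40) for Znrf3. The share of all genes without overlap was 1.08% in this comparison. With mouse 35 left out, 8 of 10 genes were below every AOM/DSS mouse, where 10.9% of genes did not overlap and 8.17% were lower, and the differences became −3.46 (SE 0.68) for Apcdd1 and −1.52 (SE 0.23) for Axin2. Nothing is read from these counts, since the contrast was known when the genes were listed.

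Mouse 35 was the highest of its group in 10 of 10 genes, below the AOM/DSS range in 0, and above every AOM/DSS mouse in 2 (Notum and Znrf3). Mouse 13 was the lowest in 8. Levels above every Control mouse were found for 7 genes in mouse 2, 3 in mouse 13 (Notum, Wif1 and Sp5), 8 in mouse 15, 10 in mouse 35 and 6 in mouse 36. Within the AOM/DSS group, mouse 33 was the lowest for 8 genes and mouse 44 the highest for 7. Most genes thus shared the highest and the lowest mouse within the AOM/DSS and within the PZH + AOM/DSS group, while the order in between was not the same in all. Control mice had no such shared order, with mouse 50 highest for 4 genes, mouse 41 for 3 and mouse 17 for 2. Mouse 2 came next after mouse 35 for Axin2 (16.3 FPKM) and Znrf3 (1.18), but was the lowest of its group for Rnf43 (9.13).

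The 4 PZH + AOM/DSS mice other than 35, a split made after seeing the values, did not lie equally far from AOM/DSS levels in all genes. Their mean was 9.75% of the AOM/DSS mean for Sp5, 12.7% for Nkd1 and 15.2% for Wif1, while Control means were 0.503%, 5.03% and 0.648%. For Axin2, Rnf43 and Znrf3 it was 32.3%, 31.8% and 33.7%, with Control at 21.1%, 26.6% and 30.6%. Axin2 in these mice had 10.1 to 16.3 FPKM, with mice 2 and 15 above every Control mouse, while Tnfrsf19 was at 17.5%, with Control at 19.7%. Notum, Wif1 and Sp5 were above every Control mouse in all 4.

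Markers of other cells and tissues also differed between groups, not always in the mice in which the 10 genes did. In AOM/DSS mice, all 6 crypt base markers tested of 7 were higher than in Control (limma adjusted p under 0.05). So were all 8 Paneth markers and the 5 neutrophil markers tested of 6. Lower were 7 of 7 smooth muscle markers and 4 of 8 colonocyte markers. Among all genes tested, 16.4% were higher and 7.23% lower. Mmp7, a Paneth marker, passed the filter only through AOM/DSS mice, so that its difference upwards was fixed by the filter. The same limit may hold for other Paneth and neutrophil markers, since between PZH and Control mice only 4 of 8 and 1 of 6 passed it. Crypt base sums were 88.6 to 131 FPKM in Control, 112 to 149 in PZH, 185 to 282 in AOM/DSS and 140 to 272 FPKM in PZH + AOM/DSS mice. Smooth muscle sums were 2260 to 5200, 1050 to 2420, 1000 to 1750 and 879 to 2310 FPKM in the same order. In mouse 35 the crypt base (272 FPKM), Paneth (4360) and neutrophil (268) sums were the highest of its group, as were those of squamous epithelium (67.3, against 2.65 to 9.61 in the other 4 and 13.2 to 37.9 in AOM/DSS mice), leukocyte (526), fibroblast (520) and endothelium (39.2) markers, and the colonocyte (1140) and smooth muscle (879) sums the lowest. Mouse 15, the next highest for most of the 10 genes, came next for crypt base (233 FPKM) and Paneth (1910) markers but had the highest colonocyte sum (3700). Colonocyte sums include the goblet cell gene Muc2, and its part in them was not tested. Its lowest value was 234 FPKM in Control and 687 FPKM in AOM/DSS mice, where that of Car1 was 529 and 65.2 FPKM. No marker was listed at 0 in all 20 mice. Lgr5 and Ascl2 (crypt base) and Mmp7 (Paneth) are also Wnt targets or receptors in the list used below, and the part of tissue composition in the levels of the 10 genes was not tested.

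Transcripts of the members did not all follow the gene. Axin2 was carried by Axin2-201 (34.3 ± 11.5 FPKM in AOM/DSS against 6.28 ± 1.57 in Control, SD, n = 5), which starts at the upstream run shown above. The shorter Axin2-204 had 0.0158 to 0.0180 FPKM in all 5 AOM/DSS mice, against 0.166 to 3.02 FPKM in Control and 0.266 to 7.24 FPKM in PZH mice. At its length of 826 bases, the AOM/DSS values are less than a whole fragment at the depths read here and cannot be taken as measured levels. In PZH + AOM/DSS mice 2, 13, 15, 35 and 36 this form had 8.58, 2.26, 0.0185, 0.0173 and 0.0183 FPKM. The values of mice 15, 35 and 36 are also less than a whole fragment, while the Axin2 totals of mice 15 and 36 were below every AOM/DSS mouse. In mouse 2, Axin2-204 made up 8.58 of 16.3 FPKM, and with Axin2-201 alone (7.16 FPKM) this mouse was within the Control range of 4.11 to 8.13 FPKM.

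Rnf43 had an unequal course among its transcripts. Rnf43-202, the main coding form in Control mice (2.41 to 7.06 FPKM), reached 30.8 FPKM in AOM/DSS mouse 23 but 5.18 to 8.04 FPKM in the other 4. The retained-intron form Rnf43-206 had 8.93 to 20 FPKM in AOM/DSS and 1.56 to 3.65 FPKM in Control mice. The coding Rnf43-209 had 0.635 to 5.42 FPKM against 0 to 1.76 FPKM. Taken on the transcript with the highest mean alone, the difference of Rnf43 between AOM/DSS and Control was 0.91 in place of 1.78.

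Tnfrsf19 differed between groups mainly in 1 of its forms. Tnfrsf19-201, whose start at 61046469 lies downstream of the second window shown, had 7.29 to 17.5 FPKM in AOM/DSS mice and 2.38, 1.58, 0, 0 and 3.97 FPKM in Control mice. Tnfrsf19-202, which starts 37 bases from the start that the window with ATCAAAG belongs to, had 0.046 to 0.732 FPKM in AOM/DSS and 0.0415 to 1.28 FPKM in Control mice. AOM/DSS and Control mice overlapped in Tnfrsf19-202 and did not overlap in Tnfrsf19-201. Wif1-203 was listed above 0 in a single mouse, PZH + AOM/DSS mouse 15, where it had 21.8 of 36.3 FPKM. How StringTie divides reads among overlapping forms can set such values, and its part was not tested.

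**Figure D4:**
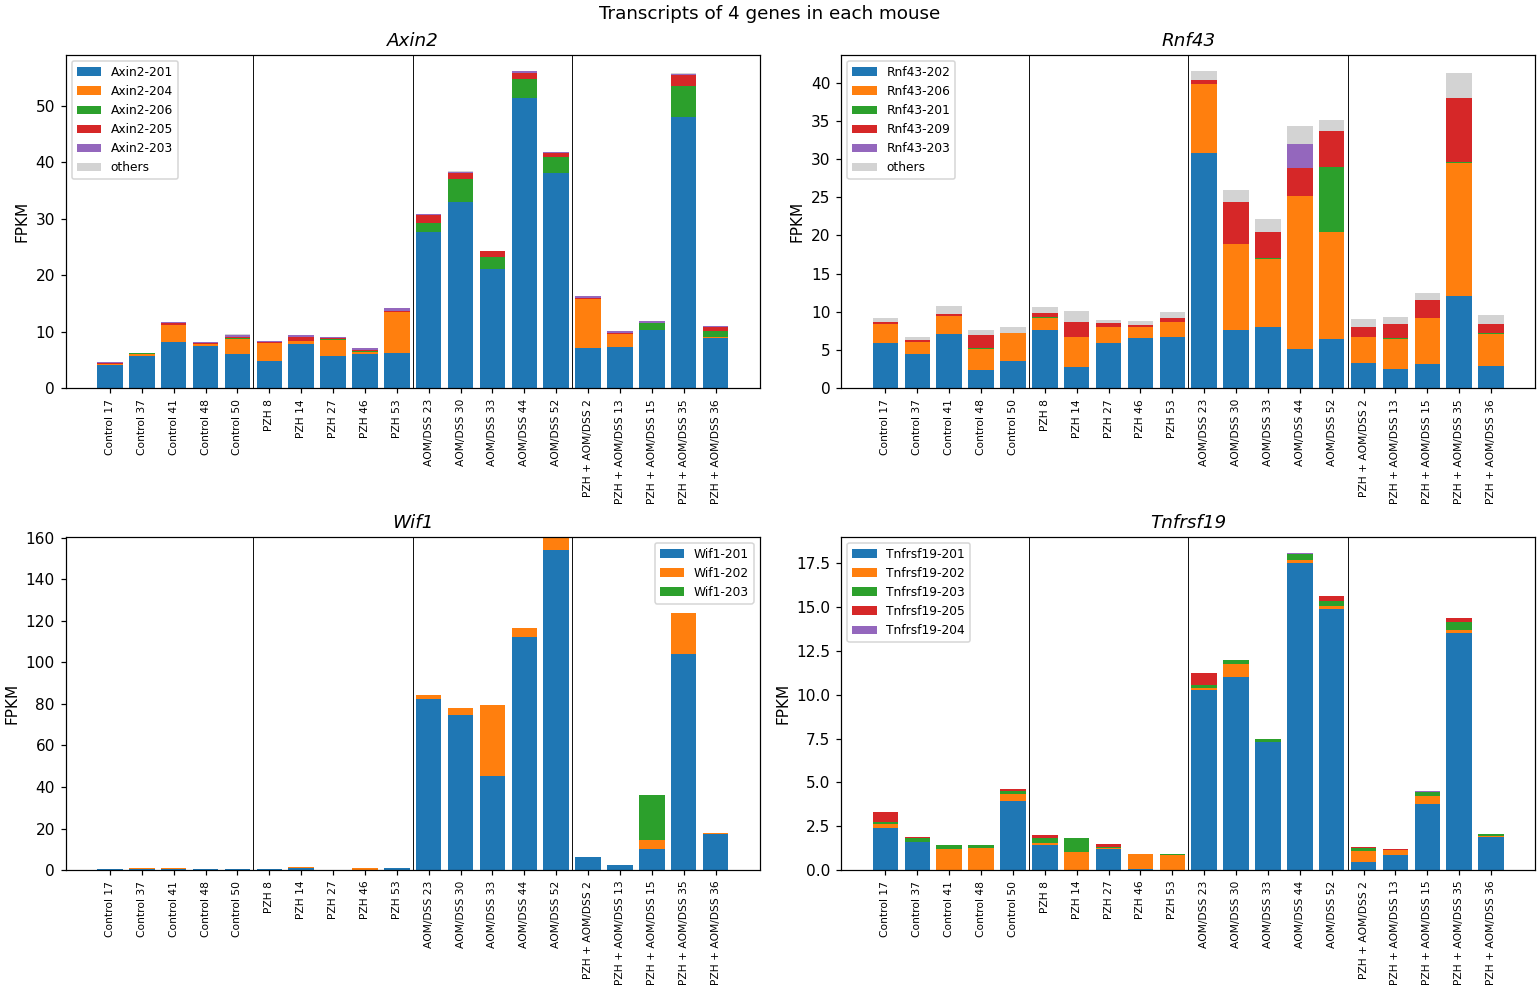
FPKM (vertical axis, from 0) of each transcript of Axin2, Rnf43, Wif1 and Tnfrsf19 in each of the 20 mice, stacked to the level of the gene. Axin2-201, Wif1-201 and Tnfrsf19-201 fill most of the AOM/DSS bars, whereas the AOM/DSS bars of Rnf43 are shared by several forms.

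The other genes of the pathway gave a setting for these 10. A list of 107 ligands, receptors, inhibitors, transducers and targets was used, of which 102 had values. It was made with earlier results of these data known, so its counts and shares are a description. Between AOM/DSS and Control mice 85 were tested, and 39 had an adjusted p under 0.05 by limma (32 higher and 7 lower, or 23 and 8 with median of ratios scaling), or 45.9%, where the share among all genes was 23.6% (16.4% higher and 7.23% lower). Of the 32, 6 (Fzd10, Lgr6, Mmp7, Wnt10a, Wnt16 and Wnt3) had no Control mouse at 0.5 FPKM and passed the filter only through AOM/DSS mice, so that a difference upwards was fixed by the filter. That leaves 26. Among all genes this held for 208 of the 2596 higher ones. Of the 39, 8 were genes that the study had named on these samples (Jun, Ctnnb1, Wnt6, Wnt10a, Sox17, Fzd10, Wnt3 and Wnt16), all higher, and these are not independent evidence of direction. Beside Wnt6 and Wnt10a, whose values are given below, their differences were 0.52 for Ctnnb1, 0.96 for Wnt3, 1.23 for Jun, 1.29 for Wnt16, 1.57 for Fzd10 and 2.02 for Sox17. Leaving out AOM/DSS mouse 44, 52, 23 or 33 lowered the count to 18, 21, 22 or 23. Calls among all genes fell as well, from 3739 of 15812 to 2516 of 15426, 2603 of 15430, 2782 of 15474 or 2862 of 15423. Part of the fall among the other Wnt genes is set by the filter, since the 6 genes that passed only through AOM/DSS mice then drop out of the test. Leaving out both Control mice with squamous markers lowered the count to 24, and calls among all genes to 2739 of 15381.

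By role, 5 of 10 ligands tested were higher and 1 lower, 2 of 4 R-spondin genes and receptors higher and 1 lower, and 6 of 14 receptors higher and 1 lower. Among other extracellular or membrane antagonists 5 of 11 were higher and 1 lower, among other intracellular inhibitors 3 of 18 higher and 2 lower, among transducers 5 of 16 higher and 1 lower, and among other targets 6 of 10 higher. Median differences by role ran from −0.08 (2 secretion genes, none called) to 0.86 (R-spondins and their receptors), where the median of all genes tested was 0.0942. The largest rises were those of Mmp7, Wnt6, Wnt10a, Lgr5 and Lef1. Mmp7, a matrix metalloproteinase made by Paneth cells, was listed at 0 in all Control and PZH mice and had 372 ± 173 FPKM (SD, n = 5) in AOM/DSS mice. Wnt6 had a difference of 3.55 (SE 0.20, limma adjusted p = 1.93e-06) and Wnt10a, one of those that passed only through AOM/DSS mice, of 3.29 (SE 0.26, adjusted p = 1.67e-05). Lgr5, the R-spondin receptor of crypt base stem cells, rose by 2.46 (SE 0.22, limma adjusted p = 3.46e-05) and Lef1, a TCF/LEF factor, by 2.12 (SE 0.26, adjusted p = 0.000318).

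The largest falls were those of Dact3 (−0.95, SE 0.26), Nkd2 (−0.83, SE 0.19), Tcf7l1 (−0.78, SE 0.22), Wnt8b (−0.62, SE 0.14) and Sfrp5 (−0.50, SE 0.16), with limma adjusted p from 0.00998 to 0.0484. Dact3, Nkd2 and Sfrp5 are themselves inhibitors of the pathway and Tcf7l1 is a mostly repressive TCF factor. Other inhibitors of Wnt signalling were higher, among them Sfrp1, Dkk3 and Igfbp4 (1.12, 1.11 and 1.85).

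**Figure D5:**
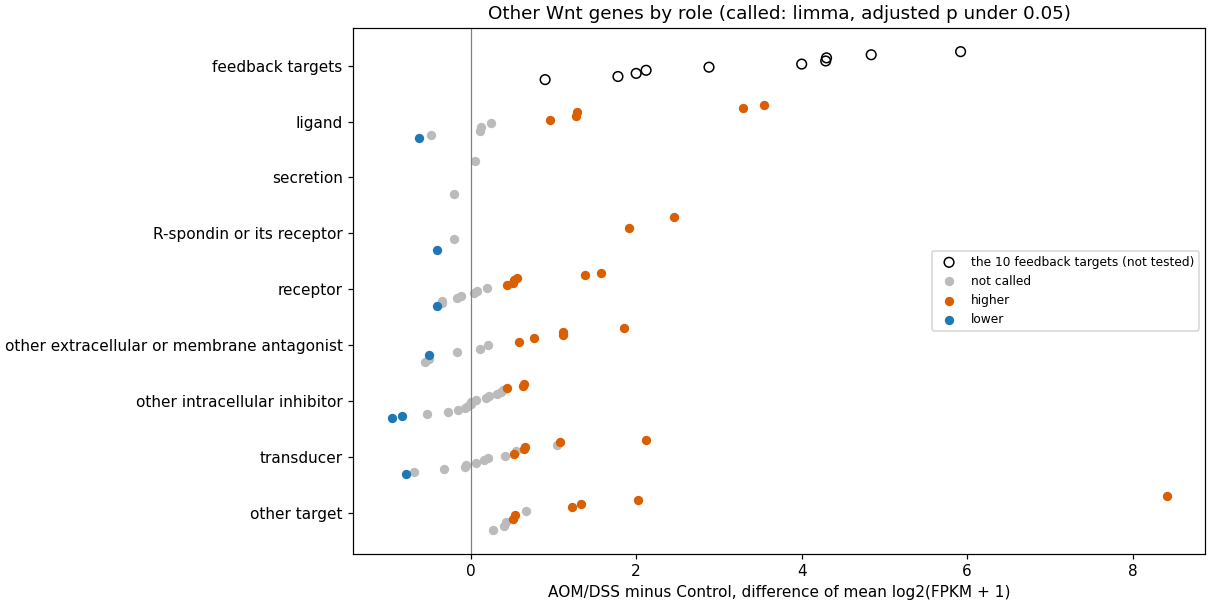
Difference of mean log2(FPKM + 1) between AOM/DSS and Control mice (horizontal axis) for 85 other Wnt genes tested, in rows by role, with the 10 feedback targets as open circles in the top row. Orange and blue mark genes higher and lower at an adjusted p under 0.05 (limma), and grey the others. The feedback targets lie between 0.90 and 5.92.

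In PZH + AOM/DSS against PZH mice, 3 of 78 other Wnt genes were higher and 0 lower by limma, or 3.85%, where 2.42% of all genes were called. They were Mmp7 (which passed the filter only through PZH + AOM/DSS mice), Igfbp4 (75.4 ± 16.6 against 27.5 ± 6.43 FPKM, SD, n = 5, difference 1.42, SE 0.19, adjusted p = 0.0126) and Sfrp1 (19 ± 5.75 against 9.42 ± 2.21 FPKM, difference 0.93, SE 0.20, adjusted p = 0.0431). Igfbp4 and Sfrp1 encode secreted Wnt antagonists. Igfbp4 was called under every alternative run. Mmp7 was lost without a filter and in 9 of the 10 fits that left out 1 mouse (all but PZH mouse 8). Where a PZH + AOM/DSS mouse was left out, Mmp7 no longer passed the filter. Sfrp1 was lost without a filter, with median of ratios scaling, on the main transcript and in all 10 of these fits. Against AOM/DSS mice 0 of 85 were called by limma, where 0.00629% of all genes were, with 18 lower and 1 higher at an unadjusted p under 0.05, beside 11.7% of all genes. Of the 18, 6 were among the 8 tested genes that the study had named on these samples, and 12 among the 77 others. Without mouse 35, singled out after its values were seen, 15 of 84 had an adjusted p under 0.05 by limma. Of these 14 were lower, beside 5.17% of all genes called. Fzd10, Jun, Wnt10a, Wnt16, Wnt3 and Wnt6 among them were named by the study as lower with PZH, and are not independent evidence of direction. Between PZH and Control mice 0 of 78 were called, with 4 lower at an unadjusted p under 0.05.

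The genes whose deviations from the group means were most like the mean deviation of the 10 genes over the 20 mice were Prkg2 (Pearson r = 0.978), Wnt10a (0.975), Notumos (0.974), Mt3 (0.971), Gm11978 (0.966), Esyt3 (0.966), Gdf11 (0.965), Mdfi (0.962), Padi4 (0.960) and Adam12 (0.959), out of 14130 genes. These values are a description, since mouse 35 sets much of the deviation. Without it, over 19 mice, Gm11978 (0.936), Prkg2 (0.923) and Wnt10a (0.916) came first. The members themselves had r from 0.768 (Axin2) to 0.974 (Nkd1) with the mean of the other 9, and from 0.334 (Axin2) to 0.914 (Nkd1) without mouse 35.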

How the data were processed

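RNA-seq of colon from 20 mice was analysed, 5 per group as labelled. Each library is a separate mouse, and no sequencing batch is named. The FPKM values deposited by the authors are per transcript. Per the paper's methods, reads were checked with FastQC, filtered with NGSQC, aligned with HISAT2 (build mm10), and transcripts were quantified by StringTie, and no counts were used here. FPKM divides by transcript length and library total, so a few abundant genes can shift all others.

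Transcripts were summed per gene by GENCODE M21 (96032 of 118434 transcripts, 32991 genes), and 22252 assembled transcripts and 150 Ensembl transcripts outside that release were left out. A fragment that StringTie gave to an assembled transcript is thus missing from its gene. Groups were compared with limma 3.58.1 (R 4.3.3) with an intensity trend on log2(FPKM + 1) over genes with 0.5 FPKM or more in 5 or more of the mice fitted, two-sided, Benjamini-Hochberg adjusted over all genes tested, with a threshold of 0.05. Standard errors of the 10 genes are from this fit, or from the 2 groups where a gene did not pass the filter. The p-values weigh a difference between group means against the spread between mice, which limma moderates across genes.

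Depth was read from the step of FPKM times length in 15074 single-transcript genes. Between 63.2 and 66.7% of low values lay within 0.02 of a step or of its midpoint, so ratios between mice are firmer than the absolute depth, and estimated fragments share that limit. Limma and the depth search were tested on simulated data.

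The 10 genes, the other lists and the markers were chosen with earlier results of these data known. Of the other Wnt genes, the 5 largest rises and 5 largest falls at an adjusted p under 0.05 are named in each comparison, beside those the study names, and others singled out were chosen after their values were seen. The genes most like the 10 had the highest Pearson correlation of deviations from group means, among genes with a mean of at least 1 FPKM. Alternatives were a pseudocount of 0.1, no filter, a mean of at least 1 FPKM, median of ratios scaling, all 20 mice in one model, the transcript with the highest mean, and leaving out each mouse. Leaving out Control mice 17 and 50 was added after seeing the data.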

Additional observations from a re-analysis of the deposited data

Results flagged for a closer look

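In 11 of 39 combinations of gene and group, 1 mouse was farther from the rest than Dixon's 95% limit of 0.71 of the group range allows, where chance gives about 1 in 20, or 1.95 of 39. The genes share their mice, so these are not independent. PZH + AOM/DSS mouse 35 accounts for 9 of them, with the next mouse in parentheses: Axin2 55.7 FPKM (16.3), Nkd1 108 (21.5), Wif1 123 (36.3), Dkk2 12.6 (3.15), Rnf43 41.3 (12.5), Znrf3 5.14 (1.18), Apcdd1 46.3 (11.8), Sp5 21.2 (4.22) and Tnfrsf19 14.4 FPKM (4.52). Notum in this mouse (32.5 FPKM) was also the highest but within the limit, because mouse 15 was at 10.4 FPKM. Marker sums of mouse 35 stand beside its levels in the results, and their part was not tested.

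Notum in Control mouse 50 (0.0364 FPKM) and Apcdd1 in PZH mouse 8 (0.744 FPKM) stood out because the other 4 mice of the group were listed at 0.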

How the results depend on the processing

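Of 669 values recomputed under the alternatives, 621 kept their direction and their side of the threshold, or stayed within the limit set for values without a test. For PZH against Control, with 0 of the 10 genes called under every alternative, signs turned only in small differences: Wif1 to −0.17 with a pseudocount of 0.1, −0.12 on the main transcript and −0.04 without Control mice 17 and 50 (−0.05 to 0.26 leaving out single mice), Axin2 to −0.01 and Znrf3 to −0.09 on the main transcript (Znrf3 −0.01 to 0.15 leaving out single mice). For PZH + AOM/DSS against PZH, Rnf43 turned to −0.40 on the main transcript and Znrf3 ranged from −0.03 (without mouse 35) to 0.44. The genes called there numbered 1 with a pseudocount of 0.1, 5 with all 20 mice in one model and 0 to 2 leaving out single mice (2 without mouse 13), and the other Wnt genes 1 without a filter, 5 with all 20 mice and 1 to 2 leaving out single mice. Among all genes, 378 of 15636 were called in the main fit and 385 with a pseudocount of 0.1. With all 20 mice it was 1043 of 16936, without a filter 90 of 30953, and leaving out single mice 54 to 423. With all 20 mice all 10 genes were tested, not 7, because mice of the other groups also counted towards the filter. The other Wnt genes called for AOM/DSS against Control numbered 24 without Control mice 17 and 50 and 18 to 33 leaving out single mice. Calls among all genes numbered 2739 and 2516 to 3562 in these fits, against 3739 in the main fit. Against AOM/DSS mice, PZH + AOM/DSS gave 2 other Wnt genes with all 20 mice and 0 to 15 leaving out single mice, and 0 to 8 of the 10 genes without overlap, both highest without mouse 35. Among all genes 76 of 16936 were called with all 20 mice. Without mouse 35 it was 808 of 15639, and 10.9% of all genes did not overlap. Median of ratios scaling moved the median difference of all genes for AOM/DSS against Control from 0.0942 to 0.00923 and the split of all calls from 2596 higher and 1143 lower to 1972 and 1586, and that of other Wnt genes from 32 and 7 to 23 and 8. With a pseudocount of 0.1 the order of the AOM/DSS differences changed, with Notum (7.47) above Wif1 (7.05) and Sp5 (6.72). Apart from genes that drop out at the filter when a mouse is left out, the cause was not tested for any of these. No paired analysis was possible because the groups share no replicate numbers. Values near 1 fragment, such as Notum and Sp5 without AOM/DSS, are at the limit of this depth.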
